A study of Mus musculus with 8 samples.

Results

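The subject is the genotype by LPS difference in bone marrow-derived macrophages (BMDMs), that is, how far the response of each gene to lipopolysaccharide (LPS) differed between *Tut7*-/- and wild-type cells. It was taken for every gene row of the count table as the log2 LPS response of *Tut7*-/- cells minus that of wild-type cells, using all 8 of 8 libraries, and 11501 of 24539 gene rows held enough counts to be tested. Macrophages were grown from the bone marrow of 7-week-old male C57BL/6 mice in L929-conditioned medium, kept overnight in M-CSF, and left untreated or given LPS for 4 h. There were thus 4 groups, wild-type and *Tut7*-/- cells without and with LPS, and each had 2 libraries. *Tut7*-/- mice carried a germline CRISPR/Cas9 deletion, made with guides in the first and in a late intron, so that bone marrow and macrophages lacked TUT7 throughout differentiation as well as during the LPS treatment. Nothing in the labels tells whether both libraries of a group stem from different mice or cultures, and a p-value here covers the spread of these libraries alone, which may be technical.

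TUT7 is a terminal uridylyltransferase, an enzyme that adds untemplated uridines to the 3′ ends of mRNAs and small RNAs and so marks many of them for decay. LPS is sensed by TLR4, which signals through MyD88 and TRIF to NF-κB, the MAP kinases and IRF3, and turns on cytokines, chemokines, adhesion molecules and, through interferon-β, the interferon-induced genes. A difference of LPS responses can come from the untreated cells, from the LPS-treated cells or from both, so levels in the 4 groups are given beside most differences.

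The libraries held 3767900 to 9394632 counts. Levels are given as CPM, counts relative to the TMM-adjusted size of the library, a scaling that takes most genes as unchanged between libraries. The table names *Tut7* by its older symbol *Zcchc6*. *Zcchc6* was at 47.0 and 53.9 CPM in untreated and 253 and 235 CPM in LPS-treated wild-type cells, and at 2.09 and 2.04 CPM in untreated and 2.85 and 2.61 CPM in LPS-treated *Tut7*-/- cells. All 4 libraries labelled *Tut7*-/- lay far below all 4 wild-type libraries. The macrophage markers *Adgre1*, *Csf1r*, *Cd68* and *Lyz2* were at 985 CPM or more in every library. Summed over 16 stromal marker genes, levels ran from 131 to 155 CPM in untreated wild-type and from 48.2 to 55.6 CPM in untreated *Tut7*-/- cells, and from 785 to 842 CPM and from 272 to 320 CPM after LPS, where *Cav1* gave most of the sum. No stromal marker of the 13 tested was called for the difference, beside 4.5% of all tested genes. At an unadjusted p under 0.05 by edgeR, 1 of them was higher and 2 were lower. The median log2 difference of the list was −0.59, beside 0.15 over all tested genes. With the length and GC correction described below it was −0.85, with 1 lower call. The part of the gap in stromal levels between the genotypes in the results below was not tested. The neutrophil genes *Ly6g*, *Mpo* and *Elane* were at 0 in every library.

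The sequences below are the windows around the annotated starts of 3 called genes that stand for the patterns described later: *Rhob*, the gene with the smallest p, *Ppp1r15a*, a stress gene with a weaker LPS response in *Tut7*-/- cells, and *Clk4*, a splicing kinase gene that was low in untreated *Tut7*-/- cells. Each runs 5′ to 3′ along the gene's strand from 250 bases before to 50 after the start in RefSeq's GRCm38.p6 annotation, at chr12:8499960-8500259 on the minus strand for *Rhob*, chr7:45526219-45526518 on the minus strand for *Ppp1r15a* and chr11:51262864-51263163 on the plus strand for *Clk4*. Capitals mark matches, on either strand, to a consensus word of the interferon-stimulated response element, the AP-1 site TGANTCA, the core TGACGT of the cAMP response element and the TATA box TATAAA.
Rhob: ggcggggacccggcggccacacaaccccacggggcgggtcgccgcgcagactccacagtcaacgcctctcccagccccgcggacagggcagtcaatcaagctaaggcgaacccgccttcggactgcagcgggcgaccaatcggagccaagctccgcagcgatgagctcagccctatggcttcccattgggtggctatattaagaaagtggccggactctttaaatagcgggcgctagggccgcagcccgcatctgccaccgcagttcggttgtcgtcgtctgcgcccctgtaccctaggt
Ppp1r15a: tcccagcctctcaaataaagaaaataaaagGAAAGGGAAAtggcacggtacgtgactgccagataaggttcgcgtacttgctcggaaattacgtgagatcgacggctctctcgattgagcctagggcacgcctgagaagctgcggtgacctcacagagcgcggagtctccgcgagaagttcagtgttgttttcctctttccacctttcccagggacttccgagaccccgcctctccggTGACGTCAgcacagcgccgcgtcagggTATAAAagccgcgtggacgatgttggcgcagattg
Clk4: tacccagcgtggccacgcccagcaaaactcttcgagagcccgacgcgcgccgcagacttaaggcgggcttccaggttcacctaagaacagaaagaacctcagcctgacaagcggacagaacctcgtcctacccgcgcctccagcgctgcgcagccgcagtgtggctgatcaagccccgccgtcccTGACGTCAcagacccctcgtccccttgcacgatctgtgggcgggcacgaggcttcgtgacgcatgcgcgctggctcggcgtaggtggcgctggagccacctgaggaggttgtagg
The *Rhob* window held none of these words, while *Ppp1r15a* held a response element word, a TATA box word and the palindrome TGACGTCA, in which the core TGACGT overlaps itself on both strands. The TATA box word of *Ppp1r15a* lay after the annotated start, at bases 266 to 271 of the window. *Clk4* held the same palindrome. Of the called genes with a window, the core TGACGT was found in 16.6% of the 374 with a higher response in *Tut7*-/- cells and 4.76% of the 42 with a lower response, against 12.4% of all 9259 tested genes with a window. A loose κB consensus was found in 66.6%, 73.8% and 67.9% of them, the interferon-stimulated response element in 3.74%, 4.76% and 3.39%, AP-1 in 4.01%, 2.38% and 4.98%, and the TATA box in 6.95%, 7.14% and 6.75%. A match describes the letters only.

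The LPS response differed between the genotypes for 517 genes, 4.5% of those tested, by the quasi-likelihood test of edgeR, with a Benjamini-Hochberg adjusted p below 0.05 taken as a call. The response was higher in *Tut7*-/- cells for 467 genes, 4.06% of those tested, and lower for 50, 0.435% of those tested. At an unadjusted p under 0.05 there were 2117 higher and 583 lower genes, 18.4% and 5.07%. Higher calls thus made up 90.3% of all calls. With DESeq2's size factors in place of TMM they made up 78.8%, with 190 higher and 51 lower calls, and with each library corrected for the length and GC content of transcripts 46.0%. That correction gave 433 calls, 3.76% of the genes tested, 199 higher and 234 lower, or 1.73% and 2.03%. The median difference over all tested genes was 0.15 on the log2 scale with TMM, 0.00 with DESeq2's size factors and −0.04 with the correction.

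**Figure D1:**
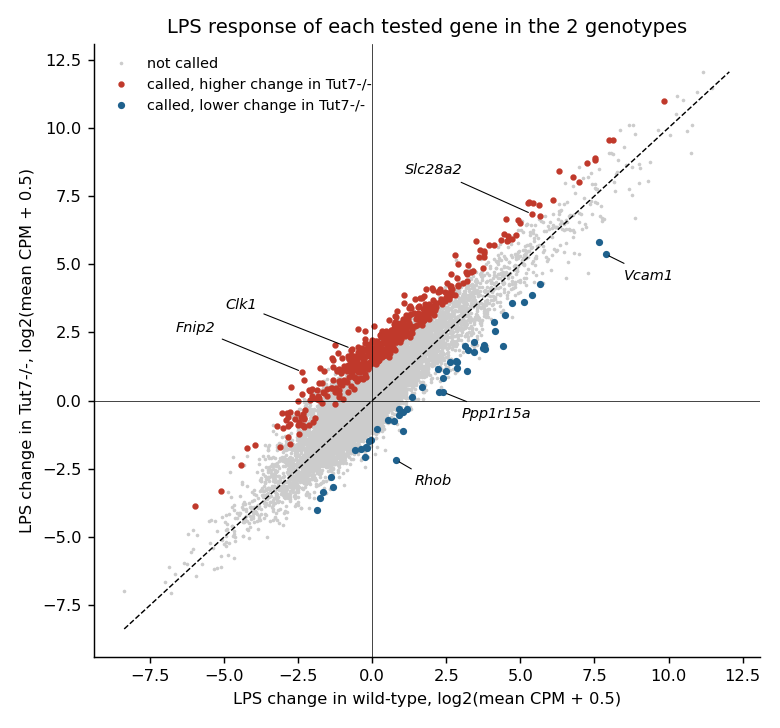
Each point is a tested gene, with its LPS response in wild-type cells on the x axis and in *Tut7*-/- cells on the y axis, both as the log2 change of mean CPM plus 0.5. Points on the dashed line had equal responses. The 467 called genes above the line, in red, crowd around a response near 0 in wild-type cells, and the 50 called genes below it, in blue, lie mostly where wild-type cells had a positive response.

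The 2 directions differed in how the gap between the genotypes was spread over the groups. Of the 467 genes with a higher response, 463 had a lower mean level in untreated *Tut7*-/- than in untreated wild-type cells, and for 437 the gap between the genotypes was larger without LPS than with it. Their median log2 gap was −1.58 without LPS and 0.09 after it. Means after LPS lay above the untreated means in both genotypes for 284 of them, below in wild-type and above in *Tut7*-/- cells for 147, and below in both for 36. Of the 50 genes with a lower response, 45 had a higher mean in untreated *Tut7*-/- cells and 44 a lower mean in LPS-treated *Tut7*-/- cells. Their gap was larger without LPS for 31, and the median gaps were 0.83 without LPS and −0.60 after it. Over all tested genes the medians were 0.00 and 0.10, and the gap was larger without LPS for 8350 of 11501 genes. These counts describe genes chosen by the same values and carry no test.

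The called genes also differed in base composition. The median GC content of the transcripts was 43.2% for genes with a higher response and 55.6% for genes with a lower response, against 50.2% for all tested genes, while that of the windows around the start was 60.7%, 62.3% and 61.0%. Tested genes were split into 5 bins of 2286 by GC content. In the lowest bin, from 32.7% to 44.3%, the median difference was 0.95, with 293 higher calls and 1 lower call. In the highest bin, from 55.9% to 71.6%, it was −0.43, with 1 higher and 23 lower calls. Relative to the mean of all libraries, median levels in the lowest bin were −1.13 and −0.84 on the log2 scale in the untreated *Tut7*-/- libraries and between −0.09 and 0.60 in the other 6. With the correction the medians of the 5 bins lay between −0.09 and 0.04, and 146 of the 467 higher and 47 of the 50 lower calls were kept. Whether the trend with GC content came from the cells or from the libraries was not tested. The corrected value or call is given below for some genes and groups only. Others moved too, such as *Ccr2* from 1.93 to 1.04, *Lilr4b* from 1.90 to 1.16 and *Zfp626* from 2.74 to 1.74. The median of the interferon-induced genes went from 0.21 to −0.21. That of the *Zbtb* genes went from 0.09 to −0.10, with 5 higher calls before and 2 after.

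**Figure D2:**
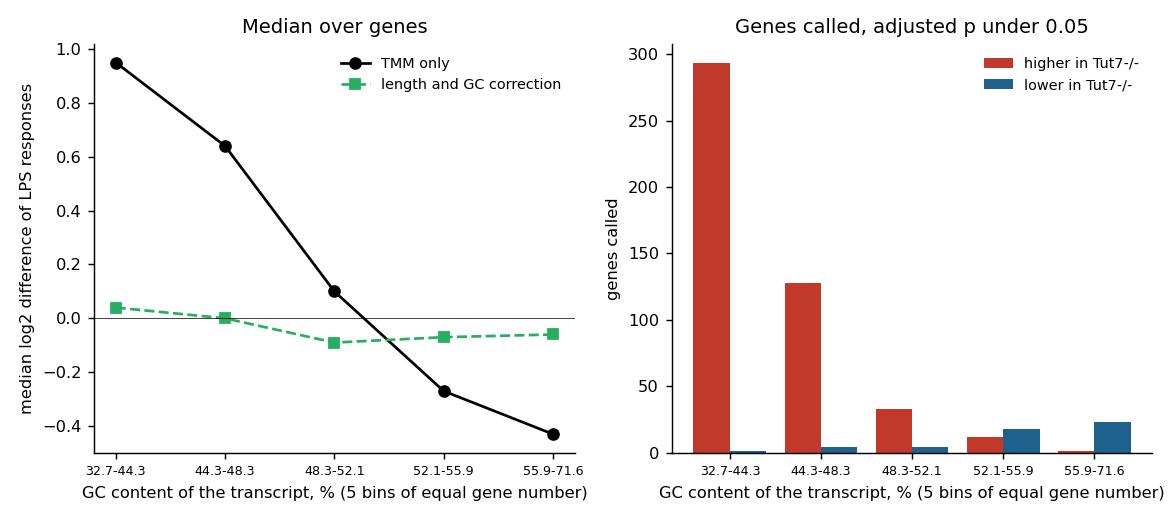
Left, the median log2 difference of LPS responses in 5 equal bins of the tested genes by transcript GC content (x axis, percent), with TMM only (circles) and with the length and GC correction (squares). Right, the number of called genes in each bin, red for higher and blue for lower in *Tut7*-/- cells: the median runs from 0.95 to −0.43 across the bins, and 293 of the higher calls lie in the first.

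Among the genes with a lower response in *Tut7*-/- cells, *Rhob* had the smallest p. It encodes RhoB, a small GTPase of endosomes that shapes the actin skeleton and receptor traffic, and lies on the minus strand at chr12:8497661-8500009. *Rhob* was at 107 and 86.8 CPM in untreated and 169 and 171 CPM in LPS-treated wild-type cells, and at 170 and 156 CPM in untreated and 38.1 and 33.2 CPM in LPS-treated *Tut7*-/- cells. The genotypes thus changed places: *Tut7*-/- cells lay above wild-type cells without LPS and below them with it, with no overlap. The LPS-treated mean was 1.76 times the untreated mean in wild-type and 0.219 times in *Tut7*-/- cells. The difference was −3.00 on the log2 scale (standard error 0.294, 95% interval −3.63 to −2.38, adjusted p = 0.00037) and −2.67 with the correction. *Rhob* was the only gene called in all 19 alternative fits.

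*Vcam1*, at chr3:116110020-116129688, encodes the adhesion molecule that binds the integrin VLA-4 on leukocytes. *Vcam1* was at 0.88 and 0.438 CPM in untreated and 282 and 261 CPM in LPS-treated wild-type cells, and at 4.06 and 4.25 CPM in untreated and 196 and 187 CPM in LPS-treated *Tut7*-/- cells. Both LPS-treated groups stood far above both untreated groups, and *Tut7*-/- cells began from a higher level and ended at a lower one, so that the mean after LPS was 412 times the untreated mean in wild-type and 46.0 times in *Tut7*-/- cells. The untreated wild-type libraries held only 8 and 5 counts of *Vcam1*, so the wild-type fold is imprecise. The difference was −3.18 (standard error 0.418, 95% interval −4.07 to −2.29, adjusted p = 0.0055) and −4.02 with the correction. Over the alternatives the difference for *Vcam1* ran from −4.02 to −1.43. Its transcript has a GC content of 44.1%, on the low side, unlike most genes with a lower response. It was called in 16 of the 18 alternatives that gave it a value, and it missed the threshold when replicate 1 or replicate 2 of the LPS-treated wild-type group was left out (adjusted p = 0.074 and 0.068).

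**Figure D3:**
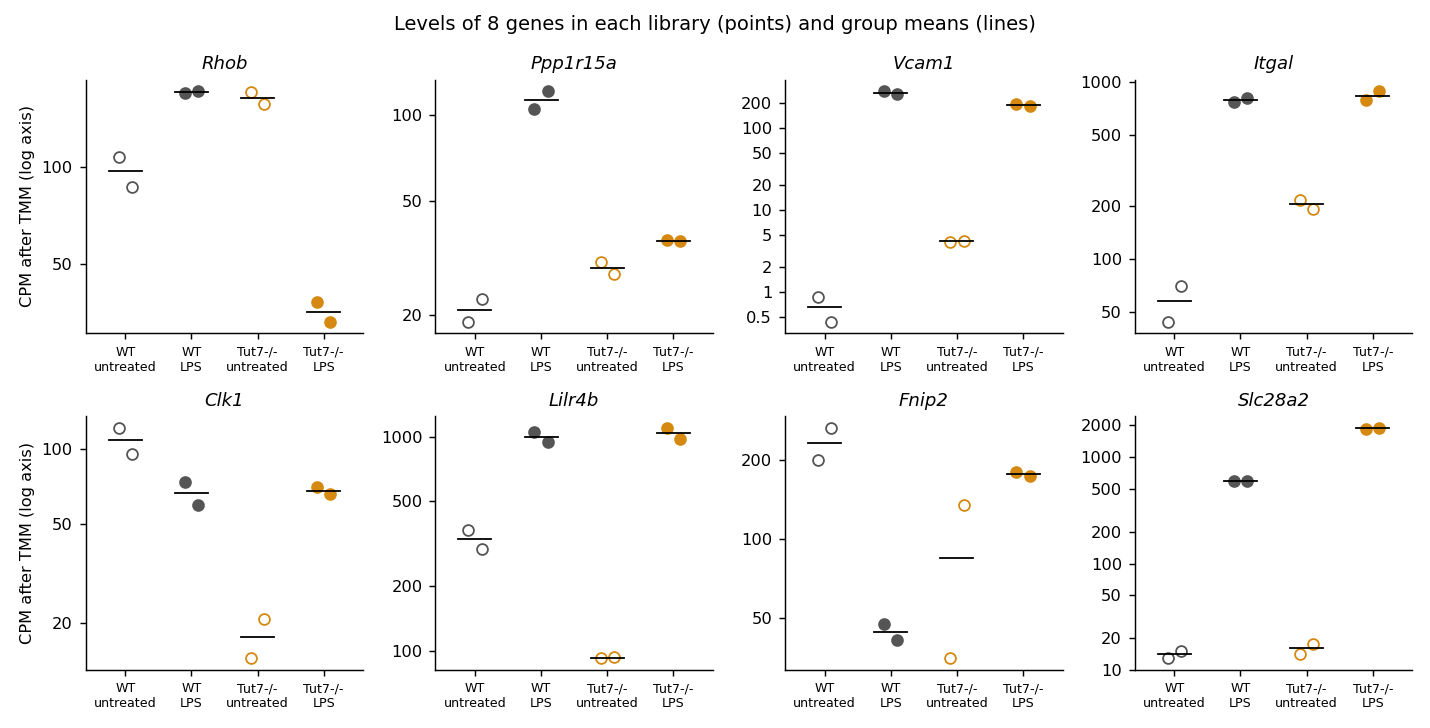
Level of 8 called genes in each library (points, CPM after TMM, log axes) with the mean of each group (lines), for the 4 groups on the x axis: grey for wild-type, orange for *Tut7*-/-, open for untreated, filled for LPS. *Rhob*, *Ppp1r15a*, *Vcam1* and *Itgal* had a lower response in *Tut7*-/- cells, and *Clk1*, *Lilr4b*, *Fnip2* and *Slc28a2* a higher one, where *Clk1* and *Lilr4b* differed between the genotypes mainly without LPS and *Slc28a2* mainly with it.

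Other adhesion genes did not move in 1 direction in the reported fit. Of 20 adhesion molecules and integrins tested, 2 had a lower and 1 a higher response, beside 0.435% and 4.06% of all tested genes. Their median was 0.08. With the correction it was −0.39, with 1 higher and 4 lower calls, and DESeq2's Wald test gave 0 higher and 4 lower calls. *Itgal*, the α chain of the integrin LFA-1, was at 43.9 and 70.3 CPM in untreated and 775 and 816 CPM in LPS-treated wild-type cells, and at 216 and 191 CPM in untreated and 794 and 891 CPM in LPS-treated *Tut7*-/- cells. Here the LPS-treated genotypes were close and the untreated ones apart. The difference for *Itgal* was −1.75 (standard error 0.33, adjusted p = 0.02), and that for *Itga6*, the α chain of a laminin receptor, was 1.41 (standard error 0.379, adjusted p = 0.048). Among regulators of small GTPases, *Arhgap22* had a lower response and *Rhoq* and *Arhgef6* a higher one. *Arhgap22*, which encodes a GTPase-activating protein for Rac, was at 47.9 and 53.4 CPM in untreated and 20.7 and 19.3 CPM in LPS-treated wild-type cells, and at 100 and 71.3 CPM in untreated and 10.4 and 7.96 CPM in LPS-treated *Tut7*-/- cells. Its levels were lower with LPS in both genotypes, and the range between the groups was widest in *Tut7*-/- cells (difference −1.88, standard error 0.363, adjusted p = 0.02). With the correction, *Rhob* and *Arhgap22* kept their calls, as did *Itgal* and *Itga6*, and neither *Rhoq* (corrected adjusted p = 0.08) nor *Arhgef6* (0.18) did.

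*Ppp1r15a* encodes GADD34, the phosphatase subunit that ends the integrated stress response by restoring eIF2α. *Ppp1r15a* was at 19.0 and 22.7 CPM in untreated and 105 and 121 CPM in LPS-treated wild-type cells, and at 30.7 and 27.8 CPM in untreated and 36.5 and 36.2 CPM in LPS-treated *Tut7*-/- cells. The LPS-treated wild-type libraries stood above all others, and the *Tut7*-/- groups lay close together. The difference was −2.11 (standard error 0.311, 95% interval −2.78 to −1.45, adjusted p = 0.011), and the mean after LPS was 5.40 times the untreated mean in wild-type and 1.24 times in *Tut7*-/- cells. *Hspa1b*, an inducible HSP70 chaperone gene, was at 4.16 CPM on average in untreated and 65.3 CPM in LPS-treated wild-type cells, and at 9.22 and 35.6 CPM in *Tut7*-/- cells (difference −2.0, standard error 0.377, adjusted p = 0.02), although its reads may be shared with its near-identical neighbour *Hspa1a*. Of the 31 genes tested for the unfolded protein response, ATF4 and chaperones, these 2 had a lower response and *Dnajc3*, which encodes an inhibitor of the eIF2α kinases, a higher one (1.28, standard error 0.316, adjusted p = 0.038). Over all tested genes 0.435% were called lower and 4.06% higher. The median of the list was 0.03, and *Dnajc3* was not called with the correction (adjusted p = 0.57).

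Several genes of secreted or surface proteins, and the adaptor gene *Blnk*, had a lower response. *Icosl*, the ligand of the T-cell costimulator ICOS, was at 16.2 and 19.8 CPM in untreated and 204 and 197 CPM in LPS-treated wild-type cells, and at 25.8 and 25.7 CPM in untreated and 92.2 and 88.0 CPM in LPS-treated *Tut7*-/- cells. *Pdgfb*, which encodes a chain of platelet-derived growth factor, was at 106 and 124 CPM in untreated and 266 and 260 CPM in LPS-treated wild-type cells, and at 133 and 126 CPM in untreated and 102 and 107 CPM in LPS-treated *Tut7*-/- cells. Both differed mainly with LPS, where the *Tut7*-/- libraries were below the wild-type libraries. The difference of LPS responses was −1.67 (standard error 0.292, adjusted p = 0.019) for *Icosl* and −1.51 (standard error 0.278, adjusted p = 0.02) for *Pdgfb*. *Ttyh2*, a tweety family membrane protein gene, and *Blnk*, an adaptor of B cell receptor signalling that macrophages also express, showed another pattern. *Blnk* was at 103 and 84.1 CPM in untreated and 91.2 and 89.5 CPM in LPS-treated wild-type cells, and at 166 and 158 CPM in untreated and 56.6 and 60.7 CPM in LPS-treated *Tut7*-/- cells. Wild-type levels of *Blnk* overlapped with and without LPS, while the *Tut7*-/- groups lay above and below them (difference −1.42, standard error 0.285, adjusted p = 0.021). For *Ttyh2* the means were 42.6 and 37.6 CPM in wild-type and 105 and 31.2 CPM in *Tut7*-/- cells (−1.57, standard error 0.312, adjusted p = 0.021). All 4 genes were called with the correction too.

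Of 11 osteoclast genes tested, 3 had a lower response and none a higher one, beside 0.435% and 4.06% of all tested genes. *Acp5*, the tartrate-resistant acid phosphatase of osteoclasts and some macrophages, was at 3.74 and 2.89 CPM in untreated and 52.0 and 48.2 CPM in LPS-treated wild-type cells, and at 27 and 18.8 CPM in untreated and 82.4 and 93.6 CPM in LPS-treated *Tut7*-/- cells. *Acp5* was thus higher in *Tut7*-/- cells in both conditions, and the gap was wider without LPS (difference −1.97, standard error 0.371, adjusted p = 0.02). *Src*, a tyrosine kinase, and *Fos*, an AP-1 subunit, were the other two, with differences of −1.41 (standard error 0.317, adjusted p = 0.026) and −1.25 (standard error 0.281, adjusted p = 0.026). The median of the list was −0.32, and the same 3 genes were its lower calls with the correction.

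*Fos* also belonged to the 23 tested AP-1, EGR, ATF and other immediate-early genes, of which 2 had a lower and 1 a higher response. The shares over all tested genes were 0.435% and 4.06%, and the median of the list was −0.65. *Fos* was at 132 and 157 CPM in untreated and 220 and 198 CPM in LPS-treated wild-type cells, and at 112 and 119 CPM in untreated and 71.3 and 70.0 CPM in LPS-treated *Tut7*-/- cells. The LPS-treated libraries were the highest in wild-type and the lowest in *Tut7*-/- cells. *Junb* was at 138 and 1207 CPM on average in wild-type and 248 and 1002 CPM in *Tut7*-/- cells (−1.12, standard error 0.299, adjusted p = 0.048, 0.054 with the correction), and *Fosl2*, another subunit, at 43.6 and 45.0 CPM in wild-type and 28.7 and 85.4 CPM in *Tut7*-/- cells (1.51, standard error 0.407, adjusted p = 0.048). *Srebf2*, a transcription factor that drives cholesterol synthesis genes, had means of 68.3 and 173 CPM in wild-type and 176 and 194 CPM in *Tut7*-/- cells (−1.20, standard error 0.32, adjusted p = 0.048). After LPS the genotypes were near each other for *Srebf2*, and the untreated levels were apart.

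Genes with a higher response in *Tut7*-/- cells were led by *Clk1*, a kinase that phosphorylates SR splicing factors, at chr1:58411988-58424088. *Clk1* was at 121 and 95.5 CPM in untreated and 73.8 and 59.3 CPM in LPS-treated wild-type cells, and at 14.5 and 20.9 CPM in untreated and 70.1 and 65.6 CPM in LPS-treated *Tut7*-/- cells. The untreated *Tut7*-/- libraries were far below the rest, and the LPS-treated libraries of both genotypes overlapped. The difference was 2.63 (standard error 0.34, 95% interval 1.91 to 3.35, adjusted p = 0.0055) and 1.78 with the correction. *Clk1* was called in 16 of 19 alternatives. Its relative *Clk4* was at 33.5 and 27.9 CPM in untreated and 19.4 and 18.4 CPM in LPS-treated wild-type cells, and at 4.67 and 7.00 CPM in untreated and 20.2 and 17.6 CPM in LPS-treated *Tut7*-/- cells, the same order of groups (difference 2.37, standard error 0.388, adjusted p = 0.014).

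Further genes of pre-mRNA processing had this pattern. Of 41 splicing factors tested, 5 had a higher response and none a lower one, beside 4.06% and 0.435% of all tested genes. They were *Srsf5*, *Sf3b1*, *Srsf1*, *Srsf10* and *Srsf3*, and the median over the list was 0.16. *Srsf5* was at 234 and 203 CPM in untreated and 276 and 250 CPM in LPS-treated wild-type cells, and at 38.7 and 76.5 CPM in untreated and 244 and 226 CPM in LPS-treated *Tut7*-/- cells (difference 1.75, standard error 0.374, adjusted p = 0.024). The untreated *Tut7*-/- libraries were again the low ones, and they were far apart from each other. None of the 5 was called with the correction, under which 4 other members of the list had a lower response. *Tardbp*, which encodes the RNA-binding protein TDP-43, was among the 12 higher genes with the smallest p, at 115 and 100 CPM in untreated and 178 and 158 CPM in LPS-treated wild-type cells and at 24.8 and 27.2 CPM in untreated and 148 and 141 CPM in LPS-treated *Tut7*-/- cells (difference 1.83, standard error 0.285, adjusted p = 0.013, 0.13 with the correction). Other called genes of RNA processing, chosen after their values were seen, were *Hnrnph1* (2.41), *Pnisr* (3.19), *Pnn* (2.84), *Srek1* (2.20), *Ddx46* (2.12), *Prpf38b* (2.03) and *Ddx5* (1.88), each also called with the correction. They were not counted against a set, so they do not describe RNA processing genes as a group. The median over the list of 41 splicing factors was −0.13 with the correction. *Neat1*, the RNA scaffold of nuclear paraspeckles, also chosen after its values were seen, was at 1299 and 1386 CPM in untreated and 283 and 266 CPM in LPS-treated wild-type cells, and at 99.3 and 422 CPM in untreated and 442 and 437 CPM in LPS-treated *Tut7*-/- cells. Its untreated *Tut7*-/- libraries lay far apart (difference 3.04, standard error 0.596, adjusted p = 0.02).

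*Thbs1*, which encodes the matrix glycoprotein thrombospondin-1, was at 124 and 165 CPM in untreated and 58.5 and 57.3 CPM in LPS-treated wild-type cells, and at 16.2 and 35.4 CPM in untreated and 70.9 and 76.7 CPM in LPS-treated *Tut7*-/- cells. Its means went in opposite directions with LPS in the genotypes (difference 2.83, standard error 0.416, adjusted p = 0.011), and its transcript had a GC content of 49.9%, near the median of all genes, with a corrected difference of 2.46. *Stk17b*, the apoptosis-related kinase DRAK2, was at 81.6 and 61.6 CPM in untreated and 20.5 and 20.3 CPM in LPS-treated wild-type cells, and at 26.5 and 21.4 CPM in untreated and 38.9 and 36.1 CPM in LPS-treated *Tut7*-/- cells. The untreated wild-type libraries were the highest and the untreated *Tut7*-/- libraries were near the LPS-treated wild-type ones (difference 2.46, standard error 0.344, adjusted p = 0.0086). *Ogt*, the enzyme that adds O-linked N-acetylglucosamine to proteins, was at 216 and 125 CPM on average in wild-type and 37.6 and 111 CPM in *Tut7*-/- cells (2.34, standard error 0.386, adjusted p = 0.014). Means of *Nabp1*, a single-stranded DNA-binding protein gene, were 18.2 and 15.4 CPM in wild-type and 4.18 and 22 CPM in *Tut7*-/- cells (2.60, standard error 0.417, adjusted p = 0.014). All these genes were called with the correction.

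Receptors of the macrophage surface were also among the genes with a higher response. *Lpar6*, a receptor for lysophosphatidic acid, was at 137 and 105 CPM in untreated and 7.40 and 4.59 CPM in LPS-treated wild-type cells, and at 23.2 and 25.8 CPM in untreated and 7.59 and 6.45 CPM in LPS-treated *Tut7*-/- cells. LPS-treated libraries of both genotypes were low and overlapped, and the untreated wild-type libraries stood above the rest (difference 2.49, standard error 0.403, adjusted p = 0.014). *Ccr2*, the receptor of the monocyte chemokine CCL2, was at 82.2 and 69.2 CPM in untreated and 26.5 and 22 CPM in LPS-treated wild-type cells, and at 8.48 and 8.94 CPM in untreated and 12.2 and 9.33 CPM in LPS-treated *Tut7*-/- cells. In *Tut7*-/- cells *Ccr2* was thus low in both conditions (difference 1.93, standard error 0.363, adjusted p = 0.02). *Cxcr3*, the receptor of CXCL9 and CXCL10, went the other way at low levels, with means of 3.67 and 8.06 CPM in wild-type and 6.31 and 2.69 CPM in *Tut7*-/- cells (−2.38, standard error 0.526, adjusted p = 0.024). These were the only 2 calls among 15 chemokine and chemoattractant receptors tested, beside 4.5% of all tested genes. *Lilr4b*, of an immunoglobulin-like receptor family with near-identical members between which reads may be split, was at 366 and 300 CPM in untreated and 1059 and 949 CPM in LPS-treated wild-type cells, and at 92.2 and 93.1 CPM in untreated and 1101 and 979 CPM in LPS-treated *Tut7*-/- cells (1.90, standard error 0.289, adjusted p = 0.013). Among 24 scavenger, Fc and efferocytosis genes, *Mrc1* (1.89), *Cd36* (1.29) and *Pros1* (1.46) had a higher response and none a lower one. *Pros1* encodes a secreted ligand, not a receptor. The shares over all tested genes were 4.06% and 0.435%, and none of these 3 genes was called with the correction. *Clec4a3*, a C-type lectin of another gene family with close relatives, had means of 119 and 56.6 CPM in wild-type and 32.2 and 65.1 CPM in *Tut7*-/- cells (2.08, standard error 0.334, adjusted p = 0.014).

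A few genes with a higher response stood apart in that, for most of them, the genotypes differed mainly after LPS, and they were picked out after their values were seen except for *Rab7b*. *Slc28a2*, a concentrative nucleoside transporter, was at 12.8 and 15 CPM in untreated and 604 and 595 CPM in LPS-treated wild-type cells, and at 14.1 and 17.6 CPM in untreated and 1866 and 1896 CPM in LPS-treated *Tut7*-/- cells. Untreated libraries overlapped between the genotypes, and LPS-treated *Tut7*-/- libraries were above all others (difference 1.45, standard error 0.301, adjusted p = 0.022). *Cd300lb*, an activating receptor of myeloid cells, was at 284 and 326 CPM in untreated and 6.31 and 2.29 CPM in LPS-treated wild-type cells, and at 344 and 327 CPM in untreated and 21.8 and 24.0 CPM in LPS-treated *Tut7*-/- cells. Its LPS-treated libraries were low in both genotypes and lower in wild-type cells (2.19, standard error 0.408, adjusted p = 0.02). The same order was seen for *Lhfpl2*, with means of 143 and 3.65 CPM in wild-type and 157 and 15.2 CPM in *Tut7*-/- cells (1.96, standard error 0.412, adjusted p = 0.022). *Rab7b*, a Rab GTPase of late endosomes known to dampen TLR4 signalling, was at 153 and 183 CPM in untreated and 24.1 and 22 CPM in LPS-treated wild-type cells, and at 124 and 156 CPM in untreated and 49.4 and 60.8 CPM in LPS-treated *Tut7*-/- cells (1.51, standard error 0.316, adjusted p = 0.022). *Fnip2*, a partner of folliculin in nutrient signalling to mTORC1, was at 200 and 264 CPM in untreated and 47.6 and 41.3 CPM in LPS-treated wild-type cells, and at 35.2 and 134 CPM in untreated and 180 and 173 CPM in LPS-treated *Tut7*-/- cells. Its difference of 3.44 (standard error 0.581, adjusted p = 0.015) drew on both conditions, with *Tut7*-/- libraries below wild-type ones without LPS, where they were far apart, and above them with it. These 5 genes were all called with the correction.

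For 10 called genes a group held 3 counts or fewer in all, and no fitted fold is given. *Lcn2*, the siderophore-binding lipocalin of neutrophils and activated macrophages, had 3 and 4 counts in untreated and 146 and 102 in LPS-treated wild-type libraries, and 0 and 0 in untreated and 446 and 614 in LPS-treated *Tut7*-/- libraries. *Edn1*, which encodes the vasoconstrictor endothelin-1, had 4 and 5 counts in untreated and 880 and 463 in LPS-treated wild-type libraries, and 0 and 0 in untreated and 1478 and 1780 in LPS-treated *Tut7*-/- libraries. For both, LPS-treated *Tut7*-/- libraries held the most counts also as CPM, which was 31.8 and 33.4 against 70.6 and 84.3 for *Lcn2*. *Adgb*, called with a lower response, had 1 and 0 counts in untreated and 46 and 38 in LPS-treated wild-type libraries, and 8 and 9 in untreated and 34 and 34 in LPS-treated *Tut7*-/- libraries.

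Genes of the classical LPS response were counted on several lists, beside 4.06% of all tested genes called higher and 0.435% called lower. Of 44 interferon-induced genes tested, 5 had a higher response and none a lower one, with a median of 0.21 beside 0.15 over all genes. Among them *Ifit2*, which binds foreign RNA, was at 50.1 and 41.1 CPM in untreated and 9097 and 7997 CPM in LPS-treated wild-type cells, and at 17.0 and 17.8 CPM in untreated and 9275 and 6737 CPM in LPS-treated *Tut7*-/- cells. Only the untreated level set the genotypes apart, at low values (difference 1.29, standard error 0.31, adjusted p = 0.033). *Gbp3*, a guanylate-binding protein gene, was like it. Its relative *Gbp5* and *Ifi44* were lower in *Tut7*-/- libraries with LPS as well, but by less. None of the 5 calls was kept with the correction. Of 20 NF-κB subunits and feedback inhibitors, *Tnip3* (1.49), *Cyld* (1.86) and *Chuk* (1.58) had a higher response and none a lower one, with a median of −0.15. *Tnip3*, an inhibitor of NF-κB, was at 55.6 and 765 CPM on average in wild-type and 26.3 and 1019 CPM in *Tut7*-/- cells, and these 3 calls too were lost with the correction. No call was made by edgeR among 23 cytokines, of which 2 were higher and 4 lower at an unadjusted p under 0.05, or among 23 chemokine ligands, with 2 higher and 2 lower. DESeq2's Wald test called none of the cytokines and 1 chemokine ligand, lower in *Tut7*-/- cells, and the length and GC correction called none of the cytokines and 2 chemokine ligands, both lower. Limma on log2(RPKM + 1), a scale that holds levels near 0 close to 0, called 1 higher and 5 lower cytokines and 2 higher and 4 lower chemokine ligands. Among 11 genes of MHC class II presentation and costimulation, *Cd86* had a higher response (1.88, standard error 0.344, adjusted p = 0.02), with means of 17.8 and 280 CPM in wild-type and 4.56 and 262 CPM in *Tut7*-/- cells. It was the only call on this list, whose median was −0.49, with 3 of the 11 members above 0. At an unadjusted p under 0.05 by edgeR, 1 member was higher and 2 were lower.

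A list of 11 cytokine, chemokine, NF-κB, surface marker and mRNA decay genes held no call by edgeR or DESeq2, and 1 of them passed at an unadjusted p under 0.05. Limma on log2(RPKM + 1) called 4 of them lower, namely *Il6*, *Il12b*, *Il23a* and *Ccl17*, for each of which every untreated library held 2 counts or fewer. *Tnf* was at 11.7 and 11.4 CPM in untreated and 1425 and 1259 CPM in LPS-treated wild-type cells, and at 11.9 and 12.1 CPM in untreated and 878 and 918 CPM in LPS-treated *Tut7*-/- cells. The genotypes were close without LPS and further apart with it, and the difference was −0.64 with an interval of −1.26 to −0.02 (adjusted p = 0.2). *Il1b* was at 10.9 and 13.0 CPM in untreated and 5239 and 5566 CPM in LPS-treated wild-type cells, and at 9.59 and 8.15 CPM in untreated and 3329 and 3717 CPM in LPS-treated *Tut7*-/- cells. *Tut7*-/- libraries were lower in both conditions, and the difference was −0.18 with an interval of −0.82 to 0.46 (adjusted p = 0.74). *Nfkbia*, the inhibitor IκBα, had a difference of −0.07 (−0.66 to 0.51), *Zc3h12a*, which encodes the mRNA-degrading enzyme Regnase-1, of −0.20 (−0.87 to 0.47), and its relative *Zc3h12c* of 0.78 (−0.25 to 1.82). *Il6* had 0 and 2 counts in untreated and 4744 and 2989 in LPS-treated wild-type libraries, and 0 and 0 in untreated and 1914 and 1753 in LPS-treated *Tut7*-/- libraries. With LPS, wild-type libraries had 1032 and 979 CPM of *Il6*, against 303 and 241 CPM for *Tut7*-/- libraries. *Il12b* had 0 and 1 counts in untreated and 1437 and 1127 in LPS-treated wild-type libraries, and 0 and 2 in untreated and 1147 and 936 in LPS-treated *Tut7*-/- libraries. Its LPS-treated levels were 313 and 369 CPM in wild-type and 181 and 128 CPM in *Tut7*-/- cells, so that both cytokines were lower in *Tut7*-/- libraries with LPS, without overlap. With untreated counts this low, the LPS response of *Il6* and *Il12b* in each genotype, and so the difference of responses, was poorly determined at this depth.

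RNA decay factors are the group to which TUT7 belongs. Of 9 terminal nucleotidyltransferases *Zcchc6* itself was called, beside 4.5% of all genes tested, with a difference of −1.87 (standard error 0.381, adjusted p = 0.021) between a mean 4.83 times higher after LPS in wild-type and residual reads in *Tut7*-/- cells. With the correction 3 of the 9 had a lower response, and the median of the list went from 0.69 to −0.12. Of 9 Regnase and Roquin factors edgeR called none (3 higher and 0 lower at an unadjusted p under 0.05), and DESeq2 called none; the median was 0.78, and 0.04 with the correction. Of 41 exonucleases, deadenylases and decapping factors, *Cnot1*, the scaffold of the CCR4-NOT deadenylase, was the 1 called (1.29, standard error 0.353, adjusted p = 0.0498), and of 8 AU-rich element binding proteins *Tia1* (2.17, standard error 0.472, adjusted p = 0.024). Neither was called with the correction.

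Regulators in the nucleus were counted on 3 lists, beside 4.06% of all tested genes called higher. Of 47 genes of histone methylation and chromatin remodelling, 6 had a higher response and none a lower one, with a median of 0.63. *Chd7*, a chromatin remodeller, was at 7.37 and 8.07 CPM in untreated and 29.8 and 26.9 CPM in LPS-treated wild-type cells, and at 1.47 and 4.61 CPM in untreated and 62.6 and 56.1 CPM in LPS-treated *Tut7*-/- cells. *Tut7*-/- libraries were below wild-type ones without LPS and above them with it (difference 2.35, standard error 0.49, adjusted p = 0.022). The histone methyltransferase gene *Kmt2c* (2.12) and *Eed* (1.71), a subunit of the repressive complex PRC2, were others. With the correction 5 of the 47 genes had a higher and 2 a lower response, with a median of 0.10. Of 295 *Zfp* zinc-finger genes, many of them KRAB repressors with close relatives, 9 had a higher response and none a lower one, with a median of 0.78 (0.14 with the correction), and of 38 *Zbtb* genes 5 had a higher response and none a lower one, with a median of 0.09. *Zfp626* was at 14.9 and 11.6 CPM in untreated and 6.74 and 3.28 CPM in LPS-treated wild-type cells, and at 2.09 and 2.57 CPM in untreated and 6.01 and 6.45 CPM in LPS-treated *Tut7*-/- cells (2.74, standard error 0.522, adjusted p = 0.02).

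Housekeeping complexes had medians below 0. Of 84 cytosolic ribosomal proteins none was called by edgeR (0 higher and 1 lower at an unadjusted p under 0.05) or DESeq2, with a median of −0.47, and of 75 respiratory chain and ATP synthase subunits none was called by either (1 higher and 0 lower), with a median of −0.41. For 78 mitochondrial ribosomal proteins (2 higher and 2 lower at an unadjusted p under 0.05) and 31 proteasome subunits (2 higher and 0 lower) the counts of calls were also 0 with both tools, and the medians were −0.32 and −0.18. These medians were −0.19, −0.15, −0.16 and −0.13 with the correction, beside −0.04 over all genes. Leaving out 1 untreated library of either genotype moved them, in wild-type cells to −0.86 or −0.16 for cytosolic ribosomal proteins and −0.73 or −0.16 for the respiratory chain. Without untreated *Tut7*-/- replicate 1 the median of the cytosolic ribosomal proteins was 0.05 and that of the respiratory chain 0.03, with no calls, and without replicate 2 they were −0.88, with 54 lower calls, and −0.74, with 30 lower calls and 2 higher. Of 26 glycolysis and hypoxia-inducible genes, *Pfkl*, the liver-type phosphofructokinase, had a lower response (−1.22, standard error 0.315, adjusted p = 0.043) and none a higher one. The median of the list was −0.52, and 0.435% of all tested genes were called lower and 4.06% higher.

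**Figure D4:**
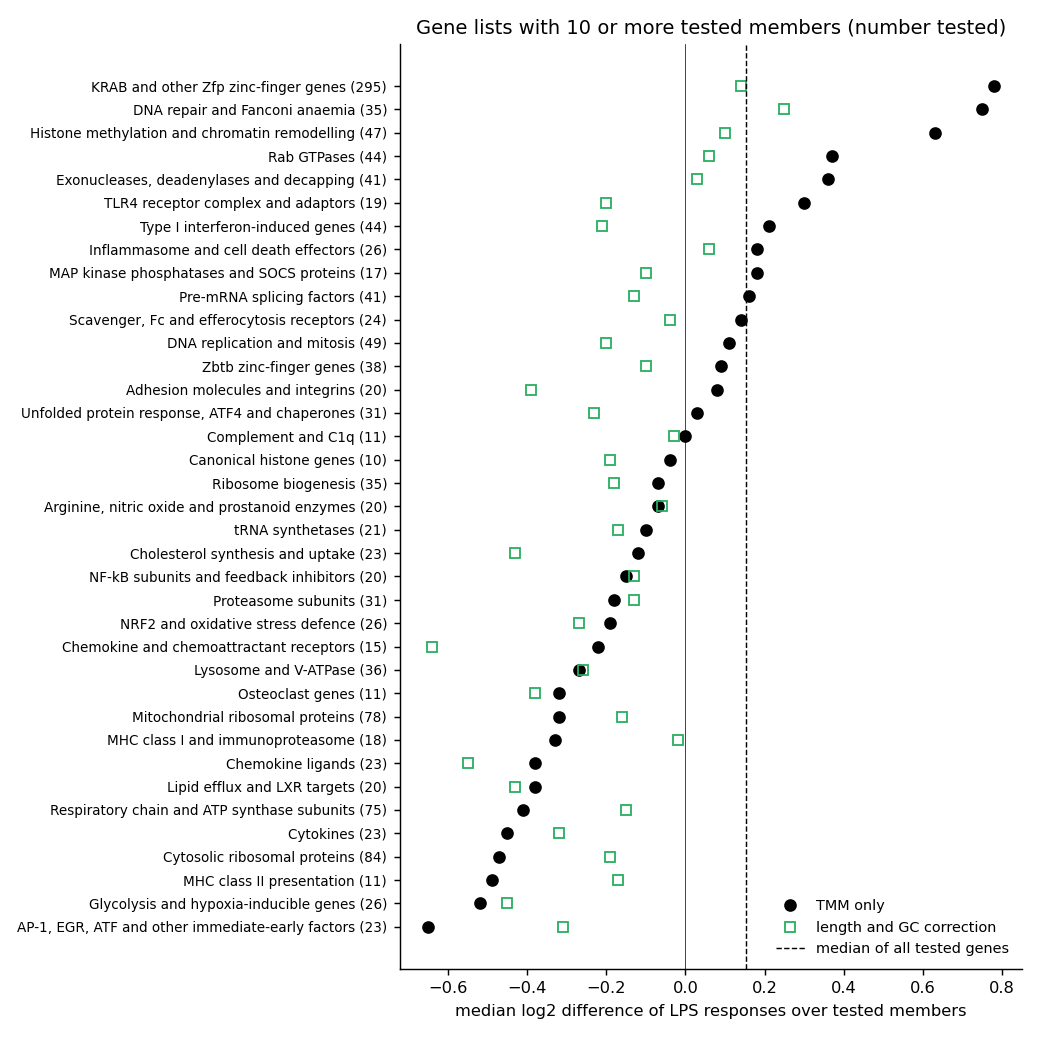
Median log2 difference of LPS responses over the tested members of most gene lists with 10 or more, marker lists left out (number tested in brackets), with TMM only (circles) and with the length and GC correction (squares); the dashed line is the median of all tested genes, 0.15. Medians run from −0.65 for immediate-early genes to 0.78 for *Zfp* genes, and those of the *Zfp*, DNA repair and chromatin lists are nearer to 0 with the correction.

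How many genes were called depended on single libraries. Without either LPS-treated wild-type library only *Rhob* was called, without untreated wild-type replicate 1 only *Rhob* and *Vcam1*, and without LPS-treated *Tut7*-/- replicate 1 *Rhob*, *Vcam1* and *Clk1*. Without untreated *Tut7*-/- replicate 2 the count was 3460, with 2485 higher and 975 lower, and all 467 and 50 genes were among them. The untreated *Tut7*-/- pair had the widest spread, with an SD of 0.646 for the log2 difference between its libraries, against 0.422 to 0.558 in the other groups. The sign of the difference was kept by all 517 genes in every fit that gave them a value, except that 465 of the 467 higher genes kept it with the length and GC correction.

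**Figure D5:**
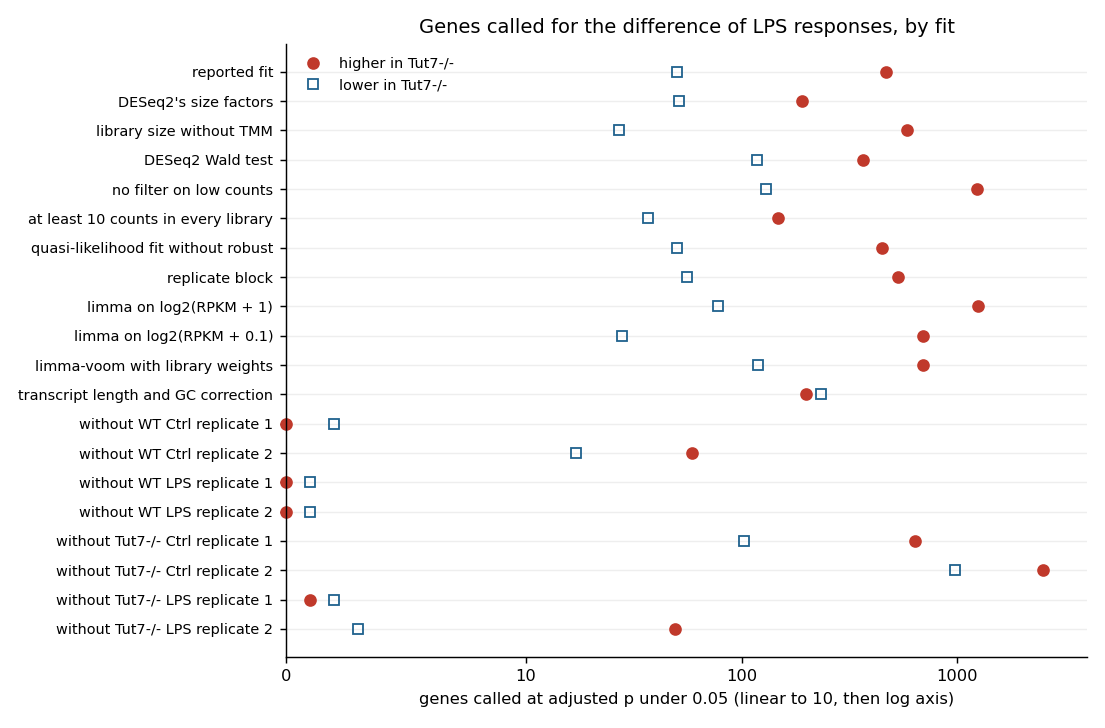
Number of genes called with a higher (filled circles) or lower (open squares) LPS response in *Tut7*-/- cells in the reported fit and in each of the 19 alternatives (x axis linear to 10, then logarithmic). Counts run from 1 without either LPS-treated wild-type library to 3460 without untreated *Tut7*-/- replicate 2, and with the length and GC correction the lower calls (234) outnumber the higher ones (199).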

How the data were processed

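RNA-seq libraries of BMDMs were analysed from the count table that the authors deposited, which holds raw read counts per gene and RPKM for each of the 8 libraries. The authors mapped the reads to the mouse RefSeq RNA of mm10 and quantified them with FANSe3, per the study's methods, and used edgeR, per the labels. Strandedness: not given in the sources used here. The deposited RPKM values, which the authors scaled by gene length and depth, entered 2 alternatives only. No column belonged to another series.

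Genes were kept with filterByExpr (11501 of 24539). After TMM scaling, all 8 libraries entered the robust quasi-likelihood fit of edgeR 4.0.16 (R 4.3.3) with the 4 groups as coefficients. Its residual degrees of freedom were 4 and its biological coefficient of variation was 18.5%. The contrast was the LPS response of *Tut7*-/- minus that of wild-type cells, with p adjusted by Benjamini-Hochberg over all 11501 genes and 0.05 as the threshold. Standard errors are the log2 difference over the root of F, and intervals are 95% t intervals. The filter lets a gene pass through 1 group. Scripts were first tested on simulated counts.

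As alternatives, TMM was replaced by the size factors of DESeq2 1.42.0 or by library size alone, the test by DESeq2's Wald test, and the filter by none or by a minimum of 10 counts in each library. Others were a fit without the robust step, the replicate number as a block, limma 3.58.1 on log2(RPKM + 1) and log2(RPKM + 0.1), limma-voom with library weights, a spline with 5 degrees of freedom on transcript length and GC content in each library (99.4% of tested genes had both), and each library left out in turn. When 1 library was left out, the lone library of that group was assumed to vary like the others.

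The 50 gene lists, with 1501 tested genes, and the comparison itself were chosen with earlier results of these data known. Genes named are the 12 with the smallest p in each direction, called genes kept in every alternative, up to 4 called members of each list, *Tut7* and the genes the study measured; some of these are not printed, and others are marked where they appear. Group means and gaps used log2(CPM + 0.5). Gene positions and windows are from RefSeq GRCm38.p6, the patch release of mm10, to which 24434 symbols matched. Python 3.11.15 and matplotlib 3.10.9 drew the figures.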

Additional observations from a re-analysis of the deposited data

Results flagged for a closer look

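The comparison is itself a difference between 2 genotypes in the response to 1 treatment, and a test of that difference was passed by 517 genes. The 3 genes among them with the smallest p were *Rhob*, with −3.00 on the log2 scale, *Vcam1*, with −3.18, and *Clk1*, with 2.63. For *Rhob* the order of the genotypes turned with LPS, and for *Clk1* the LPS-treated libraries overlapped. Groups of 2 libraries are too small for a test of single outlying libraries.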

How the results depend on the processing

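The count of 517 called genes, 467 higher and 50 lower, became 241 with DESeq2's size factors (190 higher), 1355 without a filter on low counts (1225 and 130, over 15490 genes tested), 185 with at least 10 counts in every library (148 higher, over 8444 genes tested), 1325 with limma on log2(RPKM + 1) (1247 and 78) and 812 with library weights (119 lower). The lower count was 27 with library size without TMM, 118 with DESeq2's Wald test and 28 with limma on log2(RPKM + 0.1). The length and GC correction gave 199 higher and 234 lower calls. Leaving out 1 library gave between 1 and 3460 calls, 0 to 2485 higher and 1 to 975 lower. Besides the libraries named in the report, there were 76 calls without untreated wild-type replicate 2 (59 and 17), 740 without untreated *Tut7*-/- replicate 1 (638 and 102) and 52 without LPS-treated *Tut7*-/- replicate 2 (49 and 3). The cause of these changes was not tested. Library size without TMM set the median of all genes at 0.42.

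With the replicate number as a block, 585 genes were called, 529 higher and 56 lower. Deviations of same-numbered libraries from their group means correlated between −0.198 and 0.31 over the 6 pairs of groups. The value of 0.31 was that of the untreated groups of both genotypes. Nothing in the labels tells whether same-numbered libraries were prepared together, and this was not tested. The pairing was not used in the reported fit.

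Of the genes named, only *Rhob* passed in all 19 alternatives. Signs turned for uncalled genes only. *Il1b* was at 0.10 with library size without TMM, 0.04 with log2(RPKM + 1) and 0.10 with log2(RPKM + 0.1). *Nfkbia* was at 0.20, 0.22 and 0.23 in the same settings and 0.12 with the correction, and *Zc3h12a* at 0.07, 0.08, 0.08 and 0.10. With the correction *Zc3h12c* was at −0.23 and *Cd55* at −0.10. *Cd24a* was at 0.84 with log2(RPKM + 1) and 0.14 with log2(RPKM + 0.1). With 2 libraries a group and 3767900 counts in the shallowest, small differences were not detectable, and those of genes near 0 counts in untreated cells were imprecise.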
